A study of Mus musculus with 4 samples.

Results

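The genes described here are 41 genes of cholesterol synthesis, of its control by SREBP and LXR, and of fatty acid handling, taken by symbol from a list by function, with no cut on a measured value. They were measured in RAW264.7 cells, a mouse macrophage line, in a study of macrophages kept with or without tumour cells. The members were found once each in both deposited tables, among 22554 gene names found once in each. They were set in 5 groups by role: 17 enzymes of sterol synthesis, 6 SREBP regulators and sterol sensors, 5 LXR and efflux genes, 5 fatty acid synthesis genes, and 8 genes of lipid storage, fatty acid oxidation and oxysterol synthesis. All 4 libraries came from RAW264.7 cells with no stated genetic change. In the mock group (2 libraries) the treatment label is mock, and in the coculture group (2 libraries) it is coculture with CT26, a colon carcinoma line from mouse. The medium was DMEM for the macrophages and RPMI1640 for the tumour line, per the labels' protocols. The sources used here do not give the length of the coculture, its medium or the way the 2 cell types were separated. The replicates have no stated origin in separate cultures, so a p-value covers the spread among these libraries alone, and that spread may be technical. In these bulk libraries fewer cells of a type and less RNA per cell cannot be told apart.

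Cells make cholesterol from acetyl-CoA through the mevalonate pathway, and the transcription factor SREBP2 switches on nearly all of its enzymes when sterol in the endoplasmic reticulum is low. The escort protein SCAP carries SREBP to the Golgi for cleavage, and INSIG proteins hold it back when sterol is plentiful. Oxysterols activate the LXR receptors, which switch on exporters such as ABCA1 and ABCG1, the LDL receptor degrader MYLIP, and SREBP1c with its fatty acid synthesis targets. In macrophages, which take up much cholesterol from debris and lipoproteins, these arms set the balance between synthesis, export and storage as esters.

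Levels are in FPKM, which divides fragments by gene length and library size, so levels can be set beside each other between genes. Replicate 1 of mock and coculture share a table and form pair 1, and replicate 2 of each forms pair 2. A difference is the coculture value minus the mock value after log2(FPKM + 1), which understates the change of low genes. Its mean over the 2 pairs was tested in limma with the pair as a block, and a call required p under 0.05 after Benjamini-Hochberg adjustment over all 10202 genes that reached 1 FPKM in at least 2 libraries. Each ± is limma's moderated standard error (n = 2 pairs). A difference given without 1 library is unblocked, so it takes in part of the gap between the tables and not the within-pair difference alone. The estimated depth was 12200000 to 16100000 reads a library, from the steps between low values. Of 10 macrophage markers, 10 stood at 1 FPKM or more in every library (summed 9450 and 9928 FPKM in pair 1, 5649 and 12893 FPKM in pair 2, mock then coculture). Most of these sums was Lyz2, at 7088 and 6585 FPKM in pair 1 and 3529 and 10287 FPKM in pair 2. In pair 2, 5 of the 10 were higher and 5 lower. None of 8 epithelial markers reached 1 FPKM in any library. The summed FPKM of those 8 reached at most 0.166, with Epcam and Krt18 listed at 0 throughout. Of 10 mesenchymal markers 1 (Tagln) reached 1 FPKM in any library, and their sum was 1.73 to 3.02 FPKM in mock and 1.47 to 2.18 FPKM in coculture.

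No member was called in limma. Of the 38 members tested, 0 passed as higher, where 0.127% of all tested genes did, and 0 passed as lower, where 0% did. At an unadjusted p under 0.05, 3 members were higher (Abca1, Hsd17b7 and Idi1; background 5.26%) and 3 lower (Mylip, Cpt1a and Dhcr7; background 9.45%). The smallest adjusted p was that of Abca1, 0.0907. By the count of at least 2-fold in both pairs on the log2(FPKM + 1) scale, Abca1 alone was higher (background 1.02%) and 0 members were lower (background 0.353%). Higher in both pairs were 8 members (background 21.5%) and lower in both were 12 (background 42.2%), which left 18 with opposite signs. The median difference over the tested members was -0.03, against -0.07 over all tested genes. The other 3 members, Pparg, Dgat2 and Ch25h, did not reach the filter.

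**Figure D1:**
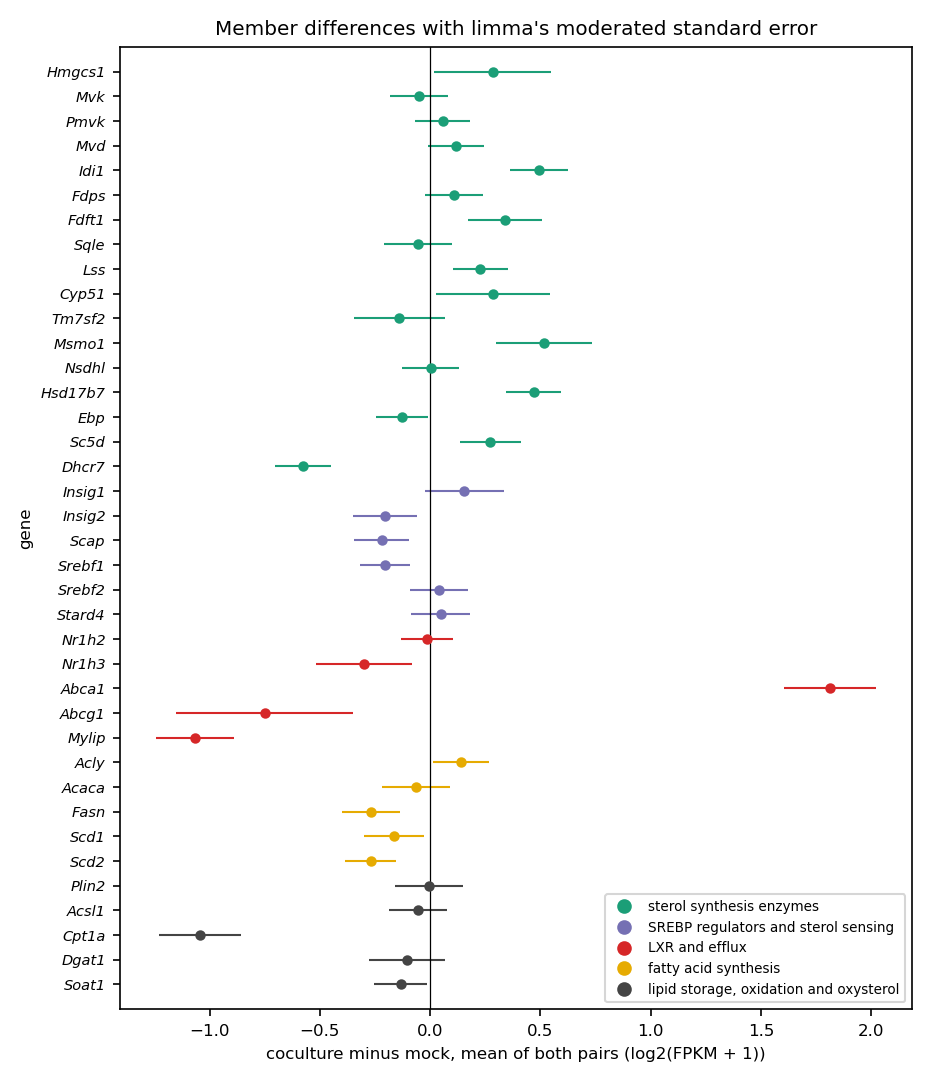
Difference of each of the 38 tested members, as log2(FPKM + 1) in coculture less that in mock (horizontal axis), with points for the mean of 2 pairs and bars for limma's moderated standard error, coloured by role. Abca1 lies furthest right at 1.81, Mylip and Cpt1a furthest left at -1.07 and -1.04, and the sterol enzymes lie between -0.58 and 0.52.

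The enzymes of sterol synthesis, followed in pathway order, were slightly higher with CT26 cells in pair 1 and level in pair 2. Their summed FPKM was 419 in mock 1 and 579 in coculture 1, against 812 in mock 2 and 781 in coculture 2. In pair 1, 14 of 17 were higher, with a median difference of 0.26. In pair 2, 7 of 17 were higher, with a median of -0.0021. Of all 10202 tested genes, 3819 were higher in pair 1 and 4240 in pair 2, with medians of -0.09 and -0.06. The median of the pair means was 0.11 for the enzymes, and between 0.06 and 0.18 under the 3 other scalings.

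Hmgcs1 encodes the synthase that makes HMG-CoA at the head of the pathway. It stood at 35.8 FPKM in mock 1 against 62.8 FPKM in coculture 1, and at 75.1 FPKM in mock 2 against 64.1 FPKM in coculture 2. The groups overlapped and the pairs went opposite ways, by 0.79 and -0.23, for a mean of 0.28 ± 0.26 (limma adjusted p = 0.656). Of the enzymes that turn mevalonate into isoprenoid units, the kinases Mvk and Pmvk and the decarboxylase Mvd differed by at most 0.23 in size in either pair. Idi1, the isopentenyl diphosphate isomerase gene, was higher in both pairs, at 21.2 then 32.7 FPKM in pair 1 and 14.5 then 19.3 FPKM in pair 2. Its difference was 0.49 ± 0.13 (limma adjusted p = 0.251), and unblocked it ran from 0.13 without coculture 1 to 0.86 without coculture 2. Each coculture library was above its own mock, but coculture 2 lay below mock 1, so the groups overlapped. Fdps, which makes farnesyl diphosphate, differed by 0.26 and -0.04 in the pairs.

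Fdft1, the squalene synthase gene at the branch point into sterols, stood at 15.5 and 23.8 FPKM in pair 1 (mock, then coculture) and at 27.9 and 29.8 FPKM in pair 2. Sqle, the squalene epoxidase gene and a rate-limiting step, stood at 57.7 and 65.1 FPKM in pair 1 and 104 and 85.5 FPKM in pair 2, a difference of -0.05 ± 0.15 (limma adjusted p = 0.887). Fdft1 was thus higher in both pairs and Sqle in pair 1 alone. Lss, the lanosterol synthase gene, was higher in both pairs by 0.30 and 0.16, and its 2 coculture libraries, at 22.8 and 25.0 FPKM, lay above both mock libraries at 18.3 and 22.3 FPKM. The mean of 0.23 was 0.093 without mock 1 and 0.36 without mock 2, unblocked. Cyp51, the lanosterol demethylase gene, followed Hmgcs1: 25.3 and 44.1 FPKM in pair 1, 53.7 and 46.3 FPKM in pair 2.

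Msmo1, the methylsterol monooxygenase gene, was the most abundant enzyme of the 17 in each library. It stood at 68.7 FPKM in mock 1 against 129.7 FPKM in coculture 1, and at 134 FPKM in mock 2 against 146 FPKM in coculture 2. The difference was 0.91 in pair 1 and 0.12 in pair 2, with a mean of 0.52 ± 0.22 (limma adjusted p = 0.371). Unblocked, the difference was 0.041 without mock 1 and 0.99 without mock 2. Both coculture libraries exceeded their own mock, yet coculture 1 was below mock 2. Hsd17b7, which reduces the keto group left during demethylation, was the steadiest of the higher enzymes. The mock libraries held 16.5 and 17.6 FPKM and the coculture libraries 24.3 and 23.7 FPKM, a difference of 0.47 ± 0.13 (limma adjusted p = 0.253). Its groups did not overlap. Leaving out any 1 library, unblocked, kept its difference between 0.42 and 0.51.

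Dhcr7, which encodes the last reductase before cholesterol, went the other way. It stood at 13.7 FPKM in mock 1 against 9.26 FPKM in coculture 1, and at 36.7 FPKM in mock 2 against 23.3 FPKM in coculture 2, giving a mean difference of -0.58 ± 0.13 (limma adjusted p = 0.209). The pairs were alike, at -0.52 and -0.63, but coculture 2 lay above mock 1. Unblocked, and so with part of the gap between the tables, the difference was 0.10 without mock 2 and 0.045 without coculture 1. Sc5d, the desaturase just before it, was higher by 0.42 and 0.12. Ebp, a sterol isomerase gene, differed by -0.13 ± 0.12. Tm7sf2 and Nsdhl, further enzyme genes of this pathway, differed by -0.14 ± 0.21 and 0.0016 ± 0.13. Among the 38 tested members, Lss, Hsd17b7 and Abca1 had both coculture libraries above both mock libraries (background 10.3%).

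**Figure D2:**
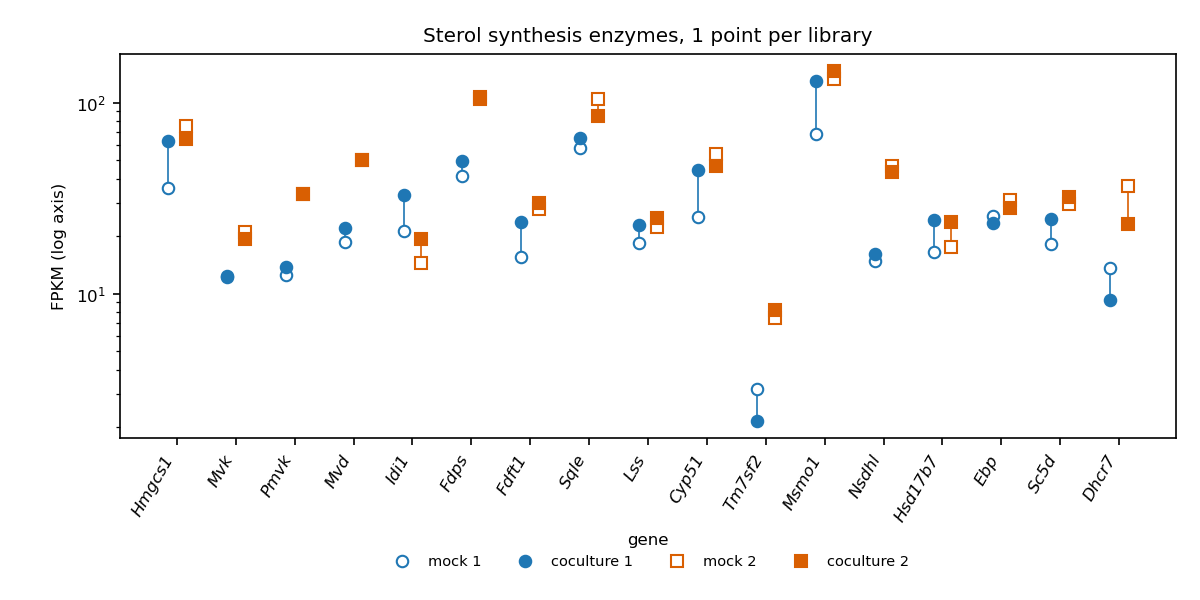
FPKM (log axis) of the 17 sterol synthesis enzymes in pathway order, 1 point per library, open for mock and filled for coculture, circles for pair 1 and squares for pair 2, with a line joining the libraries of a pair. In pair 1 the filled circle lies above the open one for 14 enzymes, and pair 2 mostly lies above pair 1.

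Levels differed more between the 2 mock libraries than between mock and coculture. For 14 of the 17 enzymes, and for 26 of the 38 tested members, mock 1 and mock 2 were further apart on the log2(FPKM + 1) scale than the libraries of either pair (background 42.4%). The median gap between the mocks was 0.95 for the enzymes and 0.26 over all tested genes. Mock 2 was the higher one in 16 of 17 enzymes, and in 5523 of all 10202 tested genes. The mocks come from separate tables that may have been normalized separately, so culture, library and processing cannot be told apart in this gap. In the same libraries, type I interferon response genes (12 of 13 found once in each table) summed to 104 FPKM in mock 1, 18.8 FPKM in mock 2, 81.0 FPKM in coculture 1 and 152 FPKM in coculture 2. Their part in the pair difference of the enzymes was not tested.

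Promoter windows from RefSeq (GRCm38.p6, 250 bases before to 50 after a transcript start) were matched for 32 of the 41 members. Fdps, Fdft1, Sqle, Stard4, Abcg1, Scd1, Scd2, Dgat1 and Dgat2 had none in the table. Windows were searched on both strands for the SREBP element TCACNCCAC and for CCAAT, the box bound by NF-Y, a known partner of SREBP at these promoters. CCAAT was found for 14 of the 14 sterol enzymes with a window, and for 43.6% of tested genes with one (41.1% of all genes in the table). These letters of the SREBP element were found for 1 of the 14, Hmgcs1, and for 1.42% of tested genes. A gene with several windows was counted if any of them held the letters. By window, CCAAT was in 14 of 17 for the enzymes (82.4%) and in 38.3% for tested genes. The windows of Hmgcs1, the pathway's entry point with differing pairs, and of Hsd17b7 and Idi1, the enzymes higher in both pairs at the smaller p-values, show how these boxes lie. Hmgcs1 is at chr13:119690101-119690400 (plus strand), Hsd17b7 at chr1:169969156-169969455 (minus strand) and Idi1 at chr13:8885356-8885655 (plus strand). Capitals mark CCAAT, which reads ATTGG on the other strand, TCACNCCAC, and the E box CACGTG.
Hmgcs1: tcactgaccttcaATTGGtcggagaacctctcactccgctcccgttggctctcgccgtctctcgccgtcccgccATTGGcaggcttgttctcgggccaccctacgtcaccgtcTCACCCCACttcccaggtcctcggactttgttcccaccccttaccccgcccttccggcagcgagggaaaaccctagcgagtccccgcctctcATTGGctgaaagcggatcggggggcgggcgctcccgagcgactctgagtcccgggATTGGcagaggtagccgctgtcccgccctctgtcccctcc
Hsd17b7: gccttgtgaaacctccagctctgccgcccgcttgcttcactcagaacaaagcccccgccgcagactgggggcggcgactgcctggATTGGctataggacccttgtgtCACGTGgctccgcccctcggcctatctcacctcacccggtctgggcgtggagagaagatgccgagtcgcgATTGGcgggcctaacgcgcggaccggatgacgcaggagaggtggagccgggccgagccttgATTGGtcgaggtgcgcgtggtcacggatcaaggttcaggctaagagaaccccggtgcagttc
Idi1: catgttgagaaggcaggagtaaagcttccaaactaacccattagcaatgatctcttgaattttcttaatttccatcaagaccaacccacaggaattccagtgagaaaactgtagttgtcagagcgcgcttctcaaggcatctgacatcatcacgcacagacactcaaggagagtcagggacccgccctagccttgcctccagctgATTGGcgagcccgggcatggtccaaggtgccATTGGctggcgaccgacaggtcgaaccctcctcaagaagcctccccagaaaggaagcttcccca
Hmgcs1 holds 4 CCAAT boxes and 1 SREBP element that begins at base -137 from the start. Hsd17b7 holds 3 CCAAT boxes and 1 E box, and Idi1 holds 2 CCAAT boxes. A match of letters is a description and not a shown binding site.

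The SREBP regulators and sterol sensors were nearly level. None of 6 passed, 0 were higher in both pairs (background 21.5%) and 3 were lower in both (background 42.2%). The median was -0.08, against -0.07 over all tested genes, with single differences between -0.22 and 0.16. Srebf2, which encodes the main activator of sterol synthesis, stood at 54.2 and 62.2 FPKM in pair 1 and 94.9 and 87.3 FPKM in pair 2, a difference of 0.04 ± 0.13 (limma adjusted p = 0.91). Rescaling to a common total turned this difference to -0.02. Srebf1, which encodes SREBP1 and is itself an LXR target in its 1c form, stood at 31.4 and 27.3 FPKM in pair 1 and 43.4 and 37.4 FPKM in pair 2. Its differences of -0.20 and -0.21 were alike in both pairs, with a mean of -0.20 ± 0.11 (limma adjusted p = 0.468), and the groups overlapped. Insig1, a retention factor that is itself an SREBP target, followed the enzymes: 30.8 and 42.6 FPKM in pair 1, 51.2 and 46.3 FPKM in pair 2 (0.16 ± 0.18, limma adjusted p = 0.722). Insig2, the retention factor that sterols control less, and Scap, the SREBP escort, were lower in both pairs by 0.17 to 0.27. Stard4, a cytosolic sterol carrier gene, differed by 0.05 ± 0.13.

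The LXR and efflux genes went in different directions. Abca1, the exporter that loads cholesterol onto apolipoproteins, stood at 0.387 FPKM in mock 1 against 3.15 FPKM in coculture 1, and at 2.30 FPKM in mock 2 against 12.6 FPKM in coculture 2. Both coculture libraries lay above both mock libraries, and the FPKM ratio of coculture to mock was 8.13 in pair 1 and 5.49 in pair 2. The difference was 1.81 ± 0.21 (limma adjusted p = 0.0907), higher than 99.4% of tested genes. Unblocked, it was 0.96 without coculture 2, 1.19 without mock 1, 2.44 without mock 2 and 2.67 without coculture 1. After median centring or quantile normalization Abca1 was called (1.88 with adjusted p = 0.0263, and 2.03 with adjusted p = 0.0482). In the other blocked alternatives that tested it the adjusted p was 0.0643 to 0.303, and without the block or without a library it was 0.837 or more. From its GENCODE M21 exon length, mock 1 held an estimated 61 Abca1 reads, coculture 1 held 525 and mock 2 held 376.

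Mylip encodes the ubiquitin ligase that degrades the LDL receptor and is another LXR target. It stood at 7.99 FPKM in mock 1 against 3.90 FPKM in coculture 1, and at 16.9 FPKM in mock 2 against 6.495 FPKM in coculture 2. Coculture was below mock without overlap, by -0.87 and -1.26 in the pairs and -1.07 ± 0.18 in the mean (limma adjusted p = 0.145). Unblocked, the difference was -0.57 without mock 2 and -1.57 without mock 1. Abcg1, the exporter that loads cholesterol onto HDL, behaved differently in each pair. It stood at 6.53 FPKM in mock 1 against 1.59 FPKM in coculture 1, but at 23.7 and 24.4 FPKM in mock 2 and coculture 2, so its mean of -0.75 ± 0.40 (limma adjusted p = 0.452) rested on pair 1. Nr1h3, which encodes LXR-alpha, was low at 2.81 and 2.63 FPKM in pair 1 and 2.18 and 1.21 FPKM in pair 2 (-0.30 ± 0.22, limma adjusted p = 0.563). Nr1h2, which encodes LXR-beta, was the more abundant receptor at 24.4 to 29.5 FPKM and differed by -0.01 ± 0.12, with the sign turned after median centring (0.05) and quantile normalization (0.02).

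The windows of Abca1 and Mylip, 2 LXR target genes that lay on opposite sides of 0 in both pairs, are shown with the same capitals. Abca1 is at chr4:53159846-53160145 (minus strand) and Mylip at chr13:45389492-45389791 (plus strand).
Abca1: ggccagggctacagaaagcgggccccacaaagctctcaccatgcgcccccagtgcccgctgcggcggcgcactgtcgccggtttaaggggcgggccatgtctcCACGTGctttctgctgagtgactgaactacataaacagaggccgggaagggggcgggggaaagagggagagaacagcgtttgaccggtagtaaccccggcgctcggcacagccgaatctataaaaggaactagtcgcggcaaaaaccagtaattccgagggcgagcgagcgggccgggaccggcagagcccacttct
Mylip: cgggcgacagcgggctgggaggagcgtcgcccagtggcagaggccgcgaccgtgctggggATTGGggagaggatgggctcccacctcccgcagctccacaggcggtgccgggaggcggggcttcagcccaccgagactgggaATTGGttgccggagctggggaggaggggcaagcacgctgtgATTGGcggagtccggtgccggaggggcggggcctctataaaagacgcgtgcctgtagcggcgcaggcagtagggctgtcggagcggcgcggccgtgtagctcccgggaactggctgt
Abca1 holds 1 E box that begins at base -147 and 0 CCAAT boxes, while Mylip holds 3 CCAAT boxes and 0 E boxes. The E box was found for 12.3% of tested genes with a window, and CCAAT for 43.6%. The exact letters of the nuclear receptor half-site AGGTCA, and of its direct repeat spaced by 4 bases, were found for 0 of the 4 LXR and efflux genes with a window. Half-sites with other letters were not searched for, so an LXR element built from them would be missed, in the Abca1 window as elsewhere. The half-site was found for 14.7% of tested genes with a window, so most of these lack it too. The exact repeat was found for 0 of 8249 tested genes with a window, so its absence cannot tell LXR targets from other genes. Whether any of these boxes goes with the direction of a difference was not tested.

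**Figure D3:**
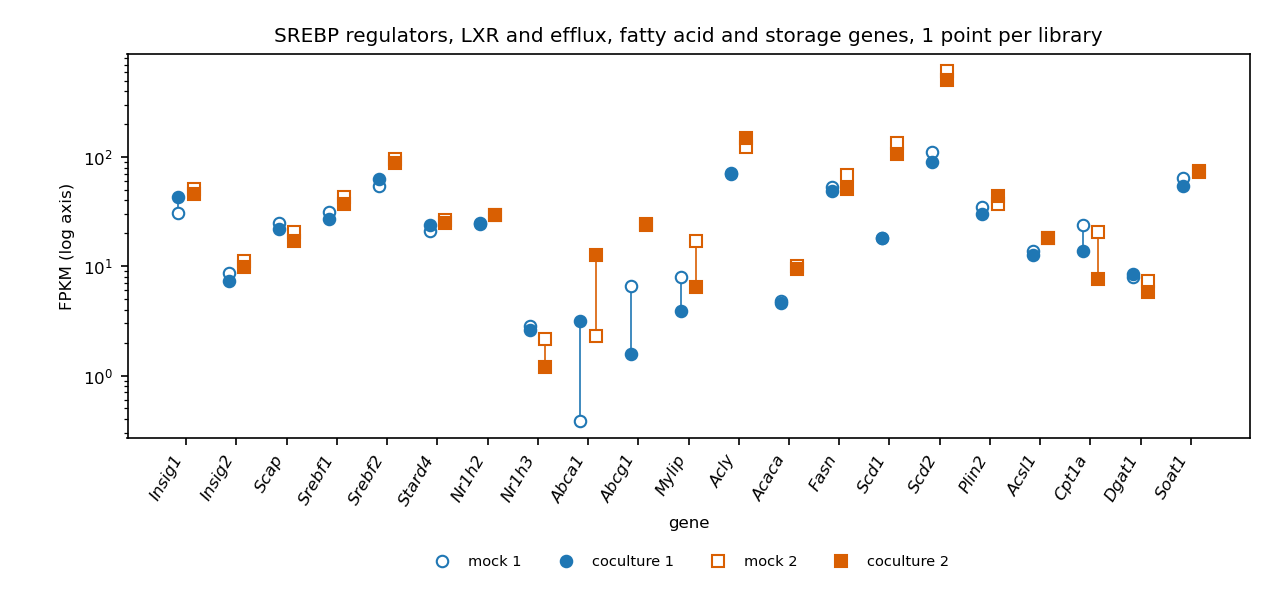
FPKM (log axis) of the 21 tested members outside sterol synthesis, 1 point per library, open for mock and filled for coculture, circles for pair 1 and squares for pair 2, with a line joining the libraries of a pair. Abca1 is higher and Mylip and Cpt1a are lower in coculture in both pairs, Abcg1 differs in pair 1 alone, and Scd1 and Scd2 differ more between the pairs than within them.

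Fatty acid synthesis genes were level or slightly lower. None of 5 passed, and 1 was higher in both pairs (background 21.5%) and 3 lower (background 42.2%). The median was -0.16, against -0.07 over all tested genes, and -0.099 after median centring. Acly, which makes cytosolic acetyl-CoA, stood at 70.5 and 70.8 FPKM in pair 1 and 123 and 148 FPKM in pair 2. Acaca, the acetyl-CoA carboxylase gene, differed by -0.06 ± 0.15. Fasn, the fatty acid synthase gene, stood at 52.9 and 48.7 FPKM in pair 1 and 68.8 and 51.1 FPKM in pair 2, a difference of -0.27 ± 0.13 (limma adjusted p = 0.415), and unblocked it was -0.084 without mock 2 and -0.46 without mock 1. Its coculture libraries lay below both mocks, as did those of Mylip and Cpt1a (background 21.5%).

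The stearoyl-CoA desaturase genes, which put the first double bond into saturated fatty acids, differed more between the tables than within the pairs. Scd2 stood at 110.0 and 90.3 FPKM in mock 1 and coculture 1, and at 606 and 506 FPKM in mock 2 and coculture 2. Within the pairs it differed by -0.28 and -0.26, a mean of -0.27 ± 0.12 (limma adjusted p = 0.380). Scd1 stood at 18.0 and 18.1 FPKM in pair 1 and 134 and 106 FPKM in pair 2, a mean of -0.16 ± 0.14 (limma adjusted p = 0.612). Scd2 was the most abundant of the 41 members in mock 1, mock 2 and coculture 2, and Msmo1 in coculture 1.

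Among the storage and oxidation genes Cpt1a stood apart. Cpt1a encodes the enzyme that admits long-chain fatty acids into mitochondria, the controlled step of their oxidation. It stood at 24.0 FPKM in mock 1 against 13.7 FPKM in coculture 1, and at 20.4 FPKM in mock 2 against 7.60 FPKM in coculture 2. Both coculture libraries lay below both mocks, and the difference was -1.04 ± 0.18 (-0.77 and -1.32 in the pairs, limma adjusted p = 0.159). Unblocked without coculture 2 it was -0.66. Plin2, which coats lipid droplets, stood at 35.1 and 29.9 FPKM in pair 1 and 37.3 and 43.6 FPKM in pair 2, with opposite signs. Soat1, which makes cholesterol esters for storage, stood at 64.5 and 54.5 FPKM in pair 1 and 73.7 and 72.3 FPKM in pair 2 (-0.13 ± 0.12). Acsl1, a fatty acid activating enzyme gene, and Dgat1, which makes triglycerides, differed by -0.05 ± 0.13 and -0.11 ± 0.17.

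The 3 members below the filter were near the lower end of detection. Pparg, a lipid-sensing transcription factor gene, stood at 0.0328 and 0.311 FPKM in pair 1 and 0.218 and 0.246 FPKM in pair 2, an estimated 1.47 to 14.8 reads a library. Dgat2 stood at 0.492 and 0.520 FPKM in pair 1 and 0.817 and 0.472 FPKM in pair 2. Ch25h, the cholesterol 25-hydroxylase gene that makes an oxysterol and is known as an interferon target, was listed at 0 in mock 1, mock 2 and coculture 2 and at 0.0911 FPKM in coculture 1, an estimated 2.03 reads. At this depth a difference in Ch25h was not detectable.

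**Figure D4:**
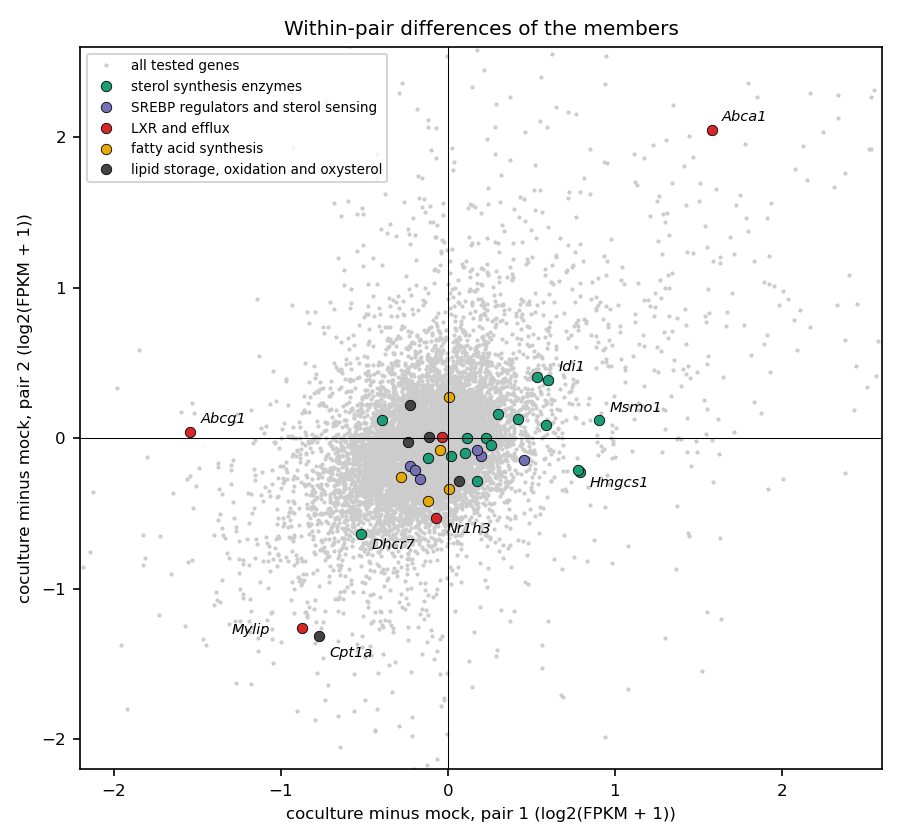
Difference in log2(FPKM + 1), coculture less mock, in pair 1 (horizontal axis) and pair 2 (vertical axis), grey for all tested genes within the axes' range and coloured by role for the 38 tested members. Abca1 lies at 1.58 and 2.04, Mylip at -0.87 and -1.26 and Cpt1a at -0.77 and -1.32, while Abcg1 (-1.54 and 0.04) and Hmgcs1 (0.79 and -0.23) lie off the diagonal.

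Other genes of these pathways, taken from lists made by function, also gave no call in limma. Of 13 tested in sterol synthesis and SREBP processing, 1 was higher in both pairs (background 21.5%) and 5 lower (background 42.2%). Of these, Rnf139, a ligase gene of the endoplasmic reticulum, differed by -0.22 ± 0.15.

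In cholesterol transport and LXR targets, 3 of 17 tested genes were higher in both pairs (background 21.5%) and 12 lower (background 42.2%). Their median was -0.35, against -0.07 over all tested genes. Of these 17, at an unadjusted p under 0.05, 1 was higher (background 5.26%) and 7 were lower (background 9.45%). Lipa, the lysosomal acid lipase gene that frees cholesterol from esters, stood at 181 and 107 FPKM in pair 1 and 162 and 68.8 FPKM in pair 2 (-0.98 ± 0.16, limma adjusted p = 0.143). Smpdl3a, an LXR target gene, stood at 6.29 and 3.34 FPKM in pair 1 and 10.6 and 3.20 FPKM in pair 2 (-1.11 ± 0.23, limma adjusted p = 0.196). Rxra, which encodes the LXR partner receptor RXR-alpha, differed by -0.50 ± 0.19 (limma adjusted p = 0.343). All 3 were lower in coculture without overlap (background 21.5%), though they were named by the size of their within-pair differences.

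In fatty acid synthesis, 5 of 17 other genes were higher in both pairs (background 21.5%) and 7 lower (background 42.2%), with a median of 0.01. The 3 named by the rule differed by -0.38 ± 0.17 (Gpam), -0.28 ± 0.11 (Elovl5) and 0.25 ± 0.20 (Fads3). In lipid droplets and oxidation, 5 of 17 were higher in both pairs (background 21.5%) and 6 lower (background 42.2%). Acsl4, which activates arachidonic acid and similar fatty acids, stood at 29.2 and 56.6 FPKM in pair 1 and 39.4 and 69.0 FPKM in pair 2 (0.86 ± 0.12, limma adjusted p = 0.114). Hilpda, a lipid droplet gene that restrains lipolysis, stood at 8.30 and 13.1 FPKM in pair 1 and 11.0 and 17.6 FPKM in pair 2 (0.62 ± 0.14, limma adjusted p = 0.209). Coculture exceeded mock for both without overlap (background 10.3%), though both were named by the size of their within-pair differences. Acsl1, of the same family as Acsl4 and among the 41, was level.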

How the data were processed

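Messenger RNA libraries of RAW264.7 cells were made with the Vazyme VAHTS kit, per the labels' protocols. The authors deposited FPKM in 2 tables, 1 for each replicate number and each with 1 mock and 1 coculture library. The submitters' processing notes name Trim Galore, Subread, featureCounts and the human build hg38, while the row names are mouse symbols. The sources used here do not give gene lengths, totals or the annotation. The second table is rounded to 3 decimals. In the first, 23 unnamed rows and 287 rows with repeated names were left out (at most 1.07% of a library's FPKM).

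Values were used as log2(FPKM + 1) with no further scaling, after a filter of 1 FPKM in at least 2 of 4 libraries. limma 3.58.1 (R 4.3.3, trended prior, two-sided) was fitted on all genes with the pair as a block, since each pair has its own table. Residual degrees of freedom were 1 and prior 3.43. The correlation across genes of same-numbered libraries' deviations from group means was 0.76. The script was tested on simulated data. Depth was estimated from the depth at which low FPKM times GENCODE M21 exon length came out as 1 read: 47.0% to 64.5% of such values lay within 0.05 of 1, against 5.59% to 7.36% at other depths. Read numbers are therefore estimates. Promoter windows are RefSeq's (GRCm38.p6).

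Described with full statistics were members with 1 sign in both pairs and a mean difference of at least 0.5 in size, 12 members chosen for their role, and up to 3 genes of each other list by the smaller within-pair difference. Idi1, Hsd17b7 and Fasn, at 0.49, 0.47 and -0.27, fell outside this rule but were given full statistics as well. The windows of Idi1 and Hsd17b7 were shown for their p-values, and so by their result. Further members are given by their values. Some genes of the other lists are not reported here. Members, lists and this rule were chosen with earlier results of these data known. Alternatives were pseudocounts of 0.1 and 0.5, no filter or 5 FPKM, rescaling, median centring, quantile normalization, no block, no trend, and leaving out each library.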

Additional observations from a re-analysis of the deposited data

How the results depend on the processing

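Of the values of single members under the alternatives, 430 kept direction and side of the threshold, 60 changed sign and 2 (Abca1) passed it. These counts pool blocked and unblocked fits. Over all genes, 13 were called higher and 0 lower in limma. The calls were 22 higher with a pseudocount of 0.1, 0 with no filter, 25 higher and 1 lower with at least 5 FPKM or after rescaling, 85 and 18 after median centring, 43 and 3 after quantile normalization, and 1 higher with no trend. With no replicate block, 1 gene and 0 members were called. Members called higher were 1 after median centring and 1 after quantile normalization (Abca1 in both, at 1.88 and 2.03), and 0 elsewhere. The LXR and efflux median of -0.30 was -0.45 and -0.37 with pseudocounts of 0.1 and 0.5, -0.75 with at least 5 FPKM, which drops Abca1 and Nr1h3, -0.23 after median centring and -0.23 after quantile normalization. Rescaling turned Nsdhl (-0.051), Srebf2 (-0.016) and Stard4 (-0.0053). Median centring turned Mvk (0.015), Sqle (0.011), Nr1h2 (0.051), Acaca (0.0017), Plin2 (0.062) and Acsl1 (0.011), and quantile normalization Mvk (0.026), Nr1h2 (0.020), Acaca (0.031), Plin2 (0.035) and Acsl1 (0.027). Leaving out 1 library, unblocked and so across the tables, called 0 genes and 0 members. The medians then ran from -0.26 to 0.61 for sterol enzymes, -0.28 to 0.12 for SREBP regulators, -0.17 to 0.12 for LXR and efflux, -0.53 to 0.67 for fatty acid synthesis and -0.30 to 0.067 for storage and oxidation. Among sterol enzymes, the range was -0.24 to 0.81 (Hmgcs1), -0.61 to 0.72 (Pmvk), -0.58 to 0.81 (Mvd), -0.57 to 0.79 (Fdps), -0.066 to 0.74 (Fdft1), -0.24 to 0.81 (Cyp51), -0.79 to 0.79 (Nsdhl), -0.060 to 0.61 (Sc5d), -0.42 to 0.32 (Mvk), -0.48 to 0.37 (Sqle), -0.91 to 0.63 (Tm7sf2), -0.26 to 0.0039 (Ebp), -1.26 to 0.10 (Dhcr7). Among SREBP regulators, the range was -0.20 to 0.51 (Insig1), -0.36 to 0.44 (Srebf2), -0.12 to 0.21 (Stard4), -0.43 to 0.022 (Srebf1). Among LXR and efflux genes, the range was -0.15 to 0.12 (Nr1h2), -2.40 to 0.90 (Abcg1), -0.66 to 0.061 (Nr1h3). Among fatty acid genes, the range was -0.39 to 0.67 (Acly), -0.53 to 0.41 (Acaca), -1.58 to 1.25 (Scd1), -1.51 to 0.97 (Scd2). Among storage and oxidation genes, the range was -0.27 to 0.26 (Plin2), -0.30 to 0.19 (Acsl1), -0.33 to 0.067 (Soat1), -0.34 to 0.13 (Dgat1). With 1 sign throughout, Insig2 ran from -0.40 to -0.016 and Scap from -0.40 to -0.041. The leave-out values were fitted without the block, so they take in part of the gap between the tables. What else lay behind these changes was not tested. With 2 pairs and 1 residual degree of freedom, small differences were not detectable.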
